A study of Homo sapiens with 8 samples.

Results

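Cytokine mRNAs are kept short-lived by proteins that recognise elements in their 3′ untranslated regions (UTRs). ZFP36 (tristetraprolin), ZFP36L1 and ZFP36L2 are CCCH zinc finger proteins that bind the AU-rich core UAUUUAU and recruit the deadenylase complex, which leads to decay of the bound mRNA. ZC3H12A (regnase-1) and its relative ZC3H12C (regnase-3) are endoribonucleases, of which ZC3H12A cleaves stem-loops in mRNAs such as that of IL6, and ARID5A binds the IL6 mRNA and counteracts that cleavage. ELAVL1 (HuR) stabilises AU-rich mRNAs, while HNRNPD (AUF1) and KHSRP (KSRP) bind the same kind of element and mostly promote decay. In keratinocytes, the mRNAs of neutrophil chemokines such as CXCL1 and CXCL8 carry AU-rich elements, and IL-17A is known to act partly by stabilising such transcripts.

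These 9 genes, chosen as AU-rich element binders and regnase family members by their Entrez identifiers, were examined among 17131 genes in the deposited table. All 9 were among the 12434 genes with enough counts to be tested. RNA was sequenced from 8 cultures of HaCaT cells, an established line of human keratinocytes, all of which received the cytokine cocktail M5, which holds oncostatin M, TNF-α, IL-1α, IL-17A and IL-22 and brings keratinocytes into a psoriasis-like state, at 10 ng/mL for 24 h. The methods give 10 nM OTS514, an inhibitor of the kinase TOPK (gene PBK), for 12 h before M5 was added. It was then kept on together with M5 for the 24 h. The design text names 24 h of inhibitor. There are 4 libraries titled M5_O5 and 4 titled M5, and their labels conflict: the libraries titled M5_O5 are entered as untreated, and those titled M5 as given the TOPK inhibitor. Directions are therefore given between titles. If the entered treatment holds, a gene lower in M5_O5 is higher with OTS514, and if the titles hold it is lower with OTS514. No culture without M5 was analysed here, all cells are of 1 line, and the labels do not say how separate the 4 cultures of a group were, so p-values measure the spread between these libraries.

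Total estimated counts ranged from 13708055 to 16922693, and M5 replicate 1 was the smallest library. Of 8 keratinocyte markers, including KRT5, KRT14 and TP63, all were tested, with a summed level of 14570 to 17070 CPM (counts scaled to library size) in the M5_O5 libraries and 16420 to 18140 CPM in the M5 libraries. Of 13 markers of immune, endothelial, fibroblast and pigment cells, 12 were in the table and 2 had enough counts to be tested, CD14 and COL1A1. The summed level of all 12, scaled to library size alone, was 66.3 to 75.5 CPM in M5_O5 and 77.8 to 90.5 CPM in M5. PTPRC, the pan-leukocyte marker, was at 0 counts in all 8 libraries. Among all these markers EPCAM was called higher (log2 fold change 0.67) and KRT14 (-0.40), TP63 (-0.29) and COL1A1 (-0.58) lower in M5_O5. With the trend of fold change on expression level removed, KRT14 was at -0.16 (edgeR adjusted p = 0.090) and TP63 at -0.11 (edgeR adjusted p = 0.082), neither called. With counts scaled by library size alone both were called lower, KRT14 at -0.28 (edgeR adjusted p = 0.0041) and TP63 at -0.17 (edgeR adjusted p = 0.011). EPCAM and COL1A1 were called in both settings. The part of these markers in the differences below was not tested.

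The core TATTTAT, written as DNA, was searched on the sense strand of 1 annotated 3′ UTR per gene (GENCODE 29, GRCh38). This was the longest 3′ UTR among the gene's protein-coding transcripts with a RefSeq match, and overlapping matches were counted. The core was found in 34.2% of the 11817 tested genes with a 3′ UTR. The ZFP36 family members hold the element their own proteins bind, with 3 cores each in 3′ UTRs of 713 bases (ZFP36), 1871 bases (ZFP36L1) and 1917 bases (ZFP36L2). ELAVL1 has 5 cores in 4904 bases and ZC3H12C has 5 in 6104 bases, while ARID5A, ZC3H12A, HNRNPD and KHSRP have none in the UTR searched. The 30-base windows below show the densest stretch of each of the 5 members with a core, 4 cytokine mRNAs and 1 further mRNA described with the results, printed 5′ to 3′ on the mRNA strand with each core in capitals.
ZFP36 (chr19:39409188-39409217, plus strand): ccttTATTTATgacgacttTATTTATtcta
ZFP36L1 (chr14:68788344-68788373, minus strand): ttatttaacttatcaaaacgTATTTATtgc
ZFP36L2 (chr2:43223451-43223480, minus strand): gaaaactatttaactTATTTATtatcttgt
ZC3H12C (chr11:110166246-110166275, plus strand): gctataatcatTATTTATagaaacaaagtt
ELAVL1 (chr19:7961838-7961867, minus strand): TATTTATaccTATTTATgTATTTATTTATt
CXCL1 (chr4:73870674-73870703, plus strand): agtcttcTATTTATTTATTTATtcattagt
CXCL2 (chr4:74097585-74097614, minus strand): ttcTATTTATTTATTTATTTATTTATttgt
CXCL8 (chr4:73743111-73743140, plus strand): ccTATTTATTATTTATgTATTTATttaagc
IL6 (chr7:22731925-22731954, plus strand): aagaaaTATTTATattgTATTTATataatg
PIM1 (chr6:37174987-37175016, plus strand): ttatgTATTTATTTATTTATTTATttggtt
The windows of CXCL1, CXCL2 and PIM1 hold runs of overlapping cores, that of CXCL8 holds 3 cores that do not overlap, and the windows of ZFP36L1, ZFP36L2 and ZC3H12C hold a single core. A match is a string of letters in the annotation and says nothing on binding in these cells.

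The data showed that the 3 ZFP36 family mRNAs and ARID5A were lower in the M5_O5 libraries than in the M5 libraries, each by less than 2-fold, and that none of the 9 genes was higher past the threshold of edgeR's quasi-likelihood test (adjusted p under 0.05). The members called were 4 of 9, all in the lower direction. The count of 0 higher was also that of DESeq2, and 1 member, KHSRP, was higher at an unadjusted p under 0.05 in edgeR. Over all tested genes, 37.1% were called in either direction, 17.6% lower and 19.5% higher in M5_O5. At a fold change of at least 2, 0 of 9 members were called, against 3.2% of all genes. The 4 libraries of one title lay entirely beyond the 4 of the other in 5 of the 9 members, and in 33.6% of all genes. The share of members called in either direction was thus near the share among all genes.

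**Figure D1:**
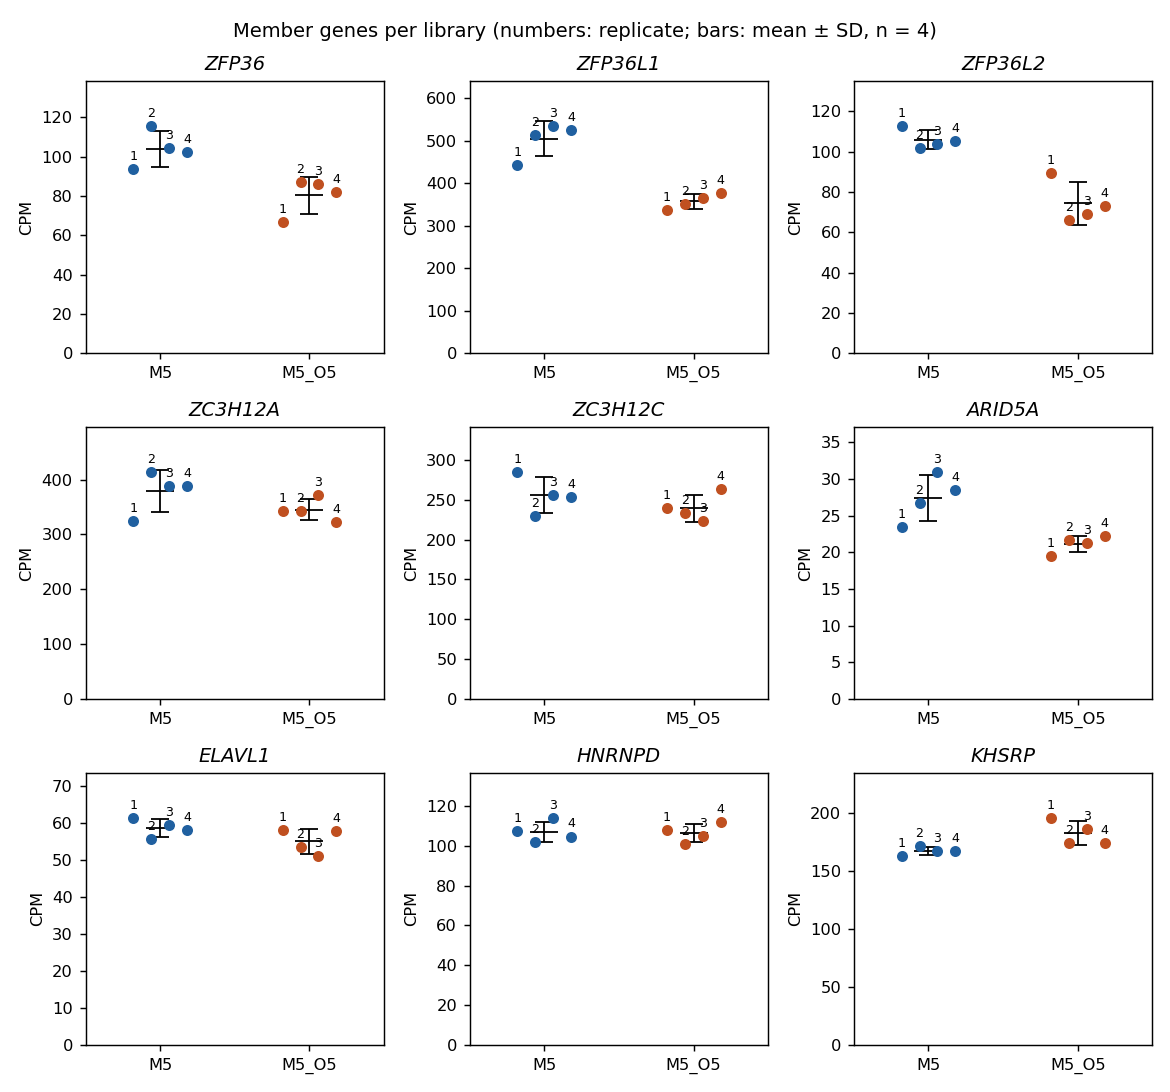
Each panel shows 1 member, with TMM-normalised CPM on an axis from 0, 1 numbered point per library (blue M5, orange M5_O5) and the mean ± SD of 4 libraries in black. ZFP36, ZFP36L1, ZFP36L2 and ARID5A lie lower in all 4 M5_O5 libraries than in any M5 library, KHSRP lies higher, and the other 4 genes overlap.

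ZFP36L1 was the most abundant of the zinc finger destabilisers. Its level was 336, 352, 365 and 378 CPM in M5_O5 replicates 1 to 4 and 444, 514, 534 and 526 CPM in M5 replicates 1 to 4. The groups did not overlap, and M5 replicate 1 was the nearest of its group to the M5_O5 libraries. The log2 fold change was -0.50 ± 0.07 (SE, n = 4 per group, 95% interval -0.64 to -0.36), or 70.9% of the M5 level, with an adjusted p of 6.5e-05 by edgeR.

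ZFP36L2 changed by a similar size. Its level was 89.6, 65.9, 69.2 and 72.9 CPM in M5_O5 replicates 1 to 4 and 112, 102, 104 and 106 CPM in M5 replicates 1 to 4, with a log2 fold change of -0.51 ± 0.08 (SE, n = 4 per group, edgeR adjusted p = 0.00031). M5_O5 replicate 1 stood above the other 3 libraries of its title but below every M5 library. In deposited TPM the groups overlapped, with M5_O5 replicate 1 at 45.5 TPM and the M5 libraries at 42.6 to 54.8 TPM. For this gene M5 replicate 1 was the highest library, the opposite of its place for ZFP36L1.

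ZFP36 encodes tristetraprolin, the best studied of the 3 proteins and the first shown to act on TNF mRNA. Its level was 66.8, 87.2, 85.9 and 81.9 CPM in M5_O5 replicates 1 to 4 and 93.6, 115, 105 and 102 CPM in M5 replicates 1 to 4, a log2 fold change of -0.37 ± 0.08 (SE, n = 4 per group, edgeR adjusted p = 0.0034). The closest libraries of the groups, M5_O5 replicate 2 and M5 replicate 1, lay close together.

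Summed over the family, the deposited TPM values, which are divided by transcript length and can be compared between genes, ranged from 332 to 366 in the M5_O5 libraries and from 426 to 444 in the M5 libraries. The mean was 346 ± 14.6 TPM in M5_O5 and 437 ± 8.15 TPM in M5 (SD, n = 4). ZFP36L1 supplied 62.9 ± 0.94% of that sum in M5_O5 and 64.2 ± 1.58% in M5, ZFP36 supplied 26.6 ± 2.41% and 25.0 ± 1.26%, and ZFP36L2 supplied 10.5 ± 1.97% and 10.8 ± 1.22%. The ranges of all 3 shares overlapped between the groups.

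The regnase mRNAs were not called. ZC3H12A was measured at 343, 343, 371 and 323 CPM in M5_O5 replicates 1 to 4 and at 324, 413, 389 and 388 CPM in M5 replicates 1 to 4, so that M5 replicate 1 lay among the M5_O5 libraries and apart from the other 3 of its title. The log2 fold change was -0.13 ± 0.07 (SE, n = 4 per group, 95% interval -0.29 to 0.02, edgeR adjusted p = 0.16). Without M5 replicate 1 it was -0.20, with an edgeR adjusted p of 0.0082, and ZC3H12A became the fifth member called lower. ZC3H12C ranged from 223 to 263 CPM in M5_O5 and from 230 to 284 CPM in M5, with a log2 fold change of -0.10 ± 0.07 (SE, 95% interval -0.24 to 0.05, edgeR adjusted p = 0.29).

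ARID5A, the stabiliser that opposes ZC3H12A on the IL6 mRNA, fell together with the zinc finger genes. It was measured at 19.5, 21.7, 21.2 and 22.2 CPM in M5_O5 replicates 1 to 4 and at 23.4, 26.8, 30.9 and 28.5 CPM in M5 replicates 1 to 4, a log2 fold change of -0.38 ± 0.09 (SE, n = 4 per group, edgeR adjusted p = 0.0037), or 77.0% of the M5 level. It was the least abundant member by CPM, and M5 replicate 1 again lay nearest to the other group.

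The general AU-rich binders were not called. ELAVL1 ranged from 51.1 to 58.0 CPM in M5_O5 and from 55.6 to 61.3 CPM in M5, a log2 fold change of -0.09 ± 0.06 (SE, 95% interval -0.22 to 0.04, edgeR adjusted p = 0.27). HNRNPD ranged from 101 to 112 CPM in M5_O5 and from 102 to 114 CPM in M5, with a log2 fold change of -0.01 ± 0.06 (SE, 95% interval -0.13 to 0.11, edgeR adjusted p = 0.94). For both genes the interval excludes a difference as large as that of ZFP36L1.

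KHSRP, which recruits the exosome and deadenylase to AU-rich mRNAs, was measured at 196, 174, 186 and 175 CPM in M5_O5 replicates 1 to 4 and at 163, 171, 168 and 168 CPM in M5 replicates 1 to 4. Its groups did not overlap, although M5_O5 replicates 2 and 4 lay just above M5 replicate 2, and M5_O5 replicate 1 was the highest of all. The log2 fold change was 0.13 ± 0.05 (SE, n = 4 per group, 95% interval 0.01 to 0.24), which missed the threshold over all genes (edgeR, adjusted p = 0.080). A two-sided exact permutation test of the log2 CPM gave p = 0.0286, the smallest that 4 against 4 libraries allow. Any gene whose groups do not overlap gets this value, as 33.6% of all tested genes would, so it adds nothing to the separation.

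**Figure D2:**
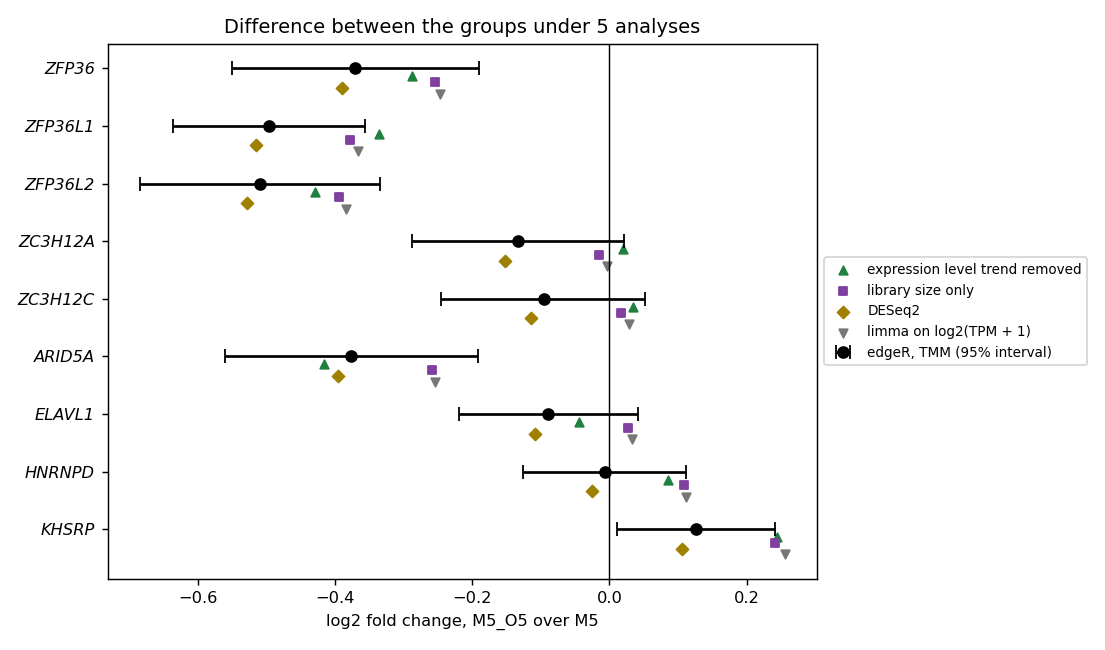
Log2 fold changes of M5_O5 over M5 (horizontal axis) for the 9 members, with the edgeR estimate and its 95% interval in black and 4 other analyses as coloured symbols below it. ZFP36, ZFP36L1, ZFP36L2 and ARID5A stay below 0 in all 5 analyses, ZC3H12A, ZC3H12C, ELAVL1 and HNRNPD lie on both sides of 0, and KHSRP stays above 0.

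These values depend in part on the scaling. When counts were scaled by library size alone, the median log2 fold change of all tested genes moved from 0.01 to 0.13, and the split of called genes moved from 2422 higher and 2192 lower to 3859 higher and 1008 lower. Under that scaling ZFP36, ZFP36L1, ZFP36L2 and ARID5A were still called lower, and KHSRP was called higher with a log2 fold change of 0.24 (edgeR, adjusted p = 0.0033). Ratios of counts within a library need no scaling factor. The count of ZFP36L1 per count of ELAVL1 ranged from 5.80 to 7.15 in M5_O5 and from 7.25 to 9.25 in M5, and that of ZFP36L2 per count of ELAVL1 ranged from 1.23 to 1.54 and from 1.75 to 1.83, neither of which overlapped. The ratio of ZFP36 to ELAVL1 overlapped between the groups, at 1.15 to 1.68 in M5_O5 and 1.53 to 2.08 in M5, and so did the ratio of ARID5A to ELAVL1, at 0.337 to 0.415 and 0.382 to 0.520. In both, M5 replicate 1 was the M5 library within the range of the other group. The ratio of KHSRP to ELAVL1 overlapped as well, at 3.02 to 3.65 in M5_O5 and 2.66 to 3.09 in M5.

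**Figure D3:**
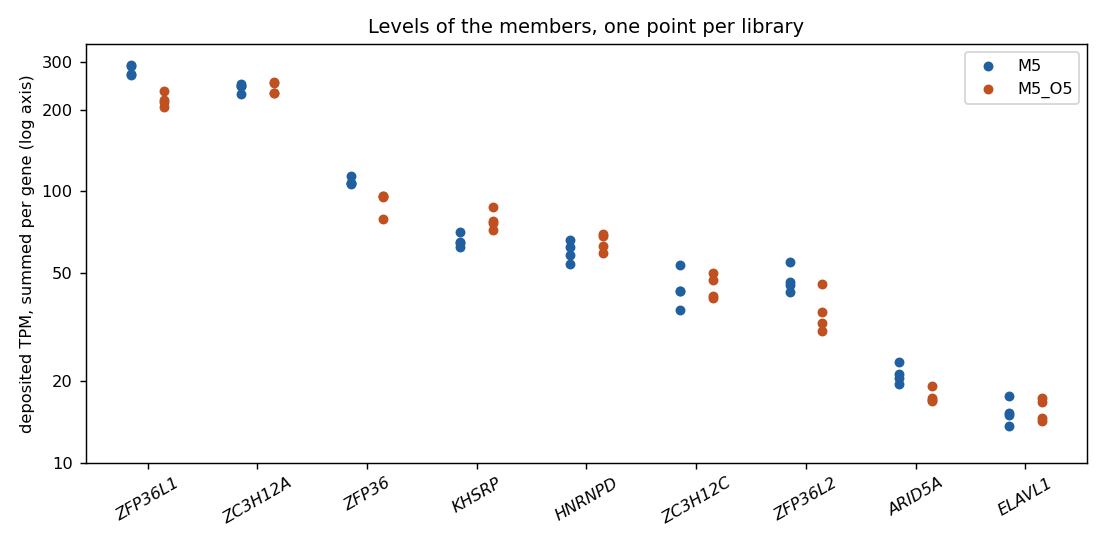
Deposited TPM summed per gene on a log axis, with 1 point per library (blue M5, orange M5_O5) and the members ordered by their mean over 8 libraries. ZFP36L1 and ZC3H12A lie above 200 TPM in every library, and ARID5A and ELAVL1 lie between 13.7 and 23.5 TPM.

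By TPM the order of the members over the 8 libraries was ZFP36L1 (249), ZC3H12A (242), ZFP36 (100), KHSRP (72.0), HNRNPD (62.6), ZC3H12C (44.3), ZFP36L2 (41.7), ARID5A (19.4) and ELAVL1 (15.5). ZFP36L1 and ZC3H12A were above 96% of all tested genes, and ELAVL1 was near the middle, above 51.7% of them. In the M5 libraries ZFP36L1, at 270 to 292 TPM, stood above ZC3H12A, at 228 to 249 TPM. In the M5_O5 libraries these 2 ranges overlapped, at 205 to 234 and 230 to 254 TPM. ZFP36 and KHSRP were likewise separate in M5, at 106 to 114 and 62.2 to 70.7 TPM, and overlapped in M5_O5, at 79.4 to 96.2 and 71.9 to 87.6 TPM. ZC3H12C and ZFP36L2 overlapped in both groups.

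The table holds estimates for single transcripts, and 14 transcripts of the members that supplied 5 to 95% of their gene were compared as shares of the gene's TPM. None passed (lowest adjusted p = 0.67, two-sided exact permutation tests over 14 transcripts), and 0 had an unadjusted p under 0.05. The smallest p that this test allows with 4 against 4 libraries is 0.0286. A single transcript with fully separate groups could therefore not pass after adjustment, and the result does not exclude a change in a share. The lowest p belonged to NM_031369 of HNRNPD, at 14.7 ± 2.27% of the gene in M5_O5 and 8.35 ± 5.68% in M5 (SD, n = 4; exact permutation p = 0.0571). M5 replicate 4 was at 0.585% for this transcript and at 15.9% for NM_001003810, against at most 4.72% for the latter in the other 7 libraries. The 3 main ZC3H12C transcripts varied within groups, with NM_033390 between 0.997 and 30.8% in M5_O5 and between 0.109 and 28.3% in M5. ZFP36, ZFP36L2 and ELAVL1 have 1 transcript in the table, and NM_004926 supplied 97.5% of ZFP36L1.

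**Figure D4:**
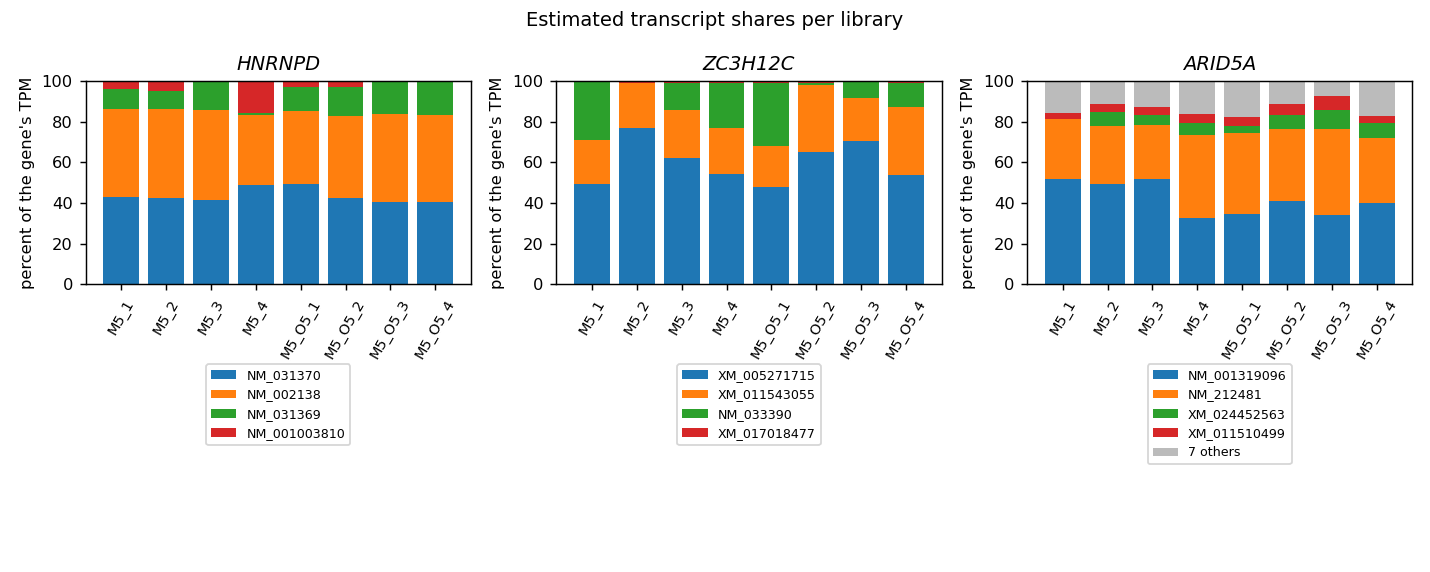
Stacked bars give the percent of each gene's deposited TPM from its transcripts in the 4 M5 and the 4 M5_O5 libraries, for HNRNPD, ZC3H12C and ARID5A. The NM_033390 part of ZC3H12C runs from 0.109 to 30.8% over the libraries, and M5 replicate 4 stands apart for HNRNPD.

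Around the members, 34 other RNA-binding regulators of stability were listed, of which 29 were tested. In M5_O5, 3 (10.3%) were called higher and 9 (31%) lower, against 19.5% higher and 17.6% lower over all tested genes. The median log2 fold change was -0.11, against 0.01 over all tested genes. The largest falls were those of IGF2BP2, an mRNA stabiliser of the insulin-like growth factor 2 binding protein family, at -0.45, N4BP1, an endoribonuclease related to the regnases, at -0.32, and PCBP2, a poly(C) binding protein, at -0.22. The largest rises were those of NCL (nucleolin) at 0.42, YBX1 at 0.34 and RBM38 at 0.23 on the log2 scale. Fewer binders were called lower under other scalings, with 2 by library size alone and 4 with the expression level trend removed, and PCBP2 was not called under either. N4BP1 was still called, at -0.20 and -0.17.

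Most genes of the machinery that the members recruit were not called. Of 55 tested genes for deadenylation, decapping and the exosome, out of 56 listed, 36 did not pass, 8 (14.5%) were called higher and 11 (20%) lower, against 19.5% higher and 17.6% lower over all tested genes. The median log2 fold change was -0.01. BTG1, which binds the deadenylase complex, fell by 0.50 on the log2 scale, DCP2, the decapping enzyme, fell by 0.36, and CNOT8, a deadenylase subunit, fell by 0.34. SKIC2, the helicase of the cytoplasmic exosome's cofactor, rose by 0.64, LSM4 by 0.46 and EXOSC2, an exosome subunit, by 0.40. EXOSC5 was the one gene of this list past 2-fold, with a log2 fold change of 1.14. It is named here because its value was seen. Its level was low, at 3.37 CPM in M5_O5 and 1.53 CPM in M5. With the expression level trend removed its log2 fold change was 0.899, short of 2-fold. By library size alone 6 genes of this list were called lower, and DCP2 was not among them (edgeR, adjusted p = 0.054), while CNOT8 was still called at -0.23.

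Of 28 kinases, phosphatase subunits, 14-3-3 proteins and proteases that act on the members' proteins, 1 (3.57%) was called higher and 11 (39.3%) lower. Over all tested genes these shares were 19.5% and 17.6%. The median log2 fold change of this list was -0.14. MAPKAPK2 (MK2), which phosphorylates ZFP36 and so limits its activity, was lower, at 119 ± 3.95 CPM in M5_O5 and 155 ± 11.04 CPM in M5 (SD, n = 4; log2 fold change -0.39, edgeR adjusted p = 0.00020). Its relative MAPKAPK3 was higher, at 22.2 ± 1.11 CPM against 17.0 ± 2.77 CPM (log2 fold change 0.38, edgeR adjusted p = 0.0084). BTRC, the ubiquitin ligase subunit that targets ZC3H12A protein for degradation, fell by 0.41 on the log2 scale. SFN, the keratinocyte 14-3-3 protein, fell by 0.29 and lost its call by library size alone (edgeR, adjusted p = 0.064). The lower count of this list was 3 by library size alone and 4 with the expression level trend removed, and it was 7 without M5 replicate 3 and 7 without M5 replicate 4.

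Of 38 mRNAs reported as targets of the members, all tested, 9 (23.7%) were called higher and 15 (39.5%) lower in M5_O5. Over all tested genes these shares were 19.5% and 17.6%. The 7 targets past 2-fold were CCL2, CXCL1, CXCL2, CXCL3, CXCL8, IL6 and LIF, all higher. The study chose all of these but LIF on these libraries, so that their direction is not independent evidence. CCL2, which attracts monocytes, was at 72.9 ± 9.15 CPM in M5_O5 and 21.6 ± 6.52 CPM in M5 (SD, n = 4; log2 fold change 1.76), IL6 was at 24.6 ± 2.55 and 8.04 ± 1.81 CPM (log2 fold change 1.62), and CXCL1, a neutrophil chemokine, was at 151 ± 30.4 and 55.5 ± 9.01 CPM (log2 fold change 1.45). These 3 genes had edgeR adjusted p-values of at most 3.0e-06. In the other direction, PIM1, a serine/threonine kinase, fell by 0.69 on the log2 scale (edgeR adjusted p = 0.00020) and PLAU (urokinase) fell by 0.45. With the expression level trend removed PLAU was at -0.23 and not called (edgeR adjusted p = 0.056).

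**Figure D5:**
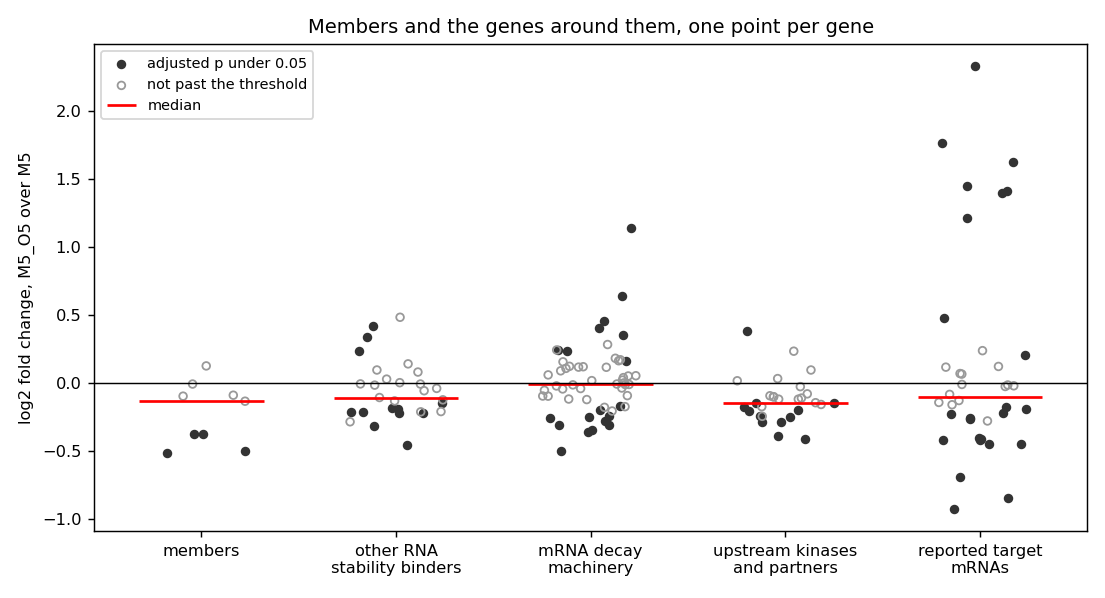
Log2 fold changes of M5_O5 over M5 (vertical axis) for the 9 members and the tested genes of 4 lists, 1 point per gene, filled where the edgeR adjusted p is under 0.05, with the median of each list in red. The members and the binders lie within 1 log2 unit of 0, while 7 of the reported targets lie above 1.

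The AU-rich core was present in reported targets of both directions and in those not called. Of the 9 higher targets, 7 had at least 1 core, with a median of 3, and of the 15 lower targets 11 had at least 1, with a median of 1. The 14 targets that did not pass included 10 with a core, with a median of 2.5 and up to 8, so that cores were common in all 3 groups. Referring back to the windows, CXCL1 and CXCL2 with their runs of overlapping cores were higher, and PIM1, with 4 overlapping cores, was lower. CCL2 has no core in its 3′ UTR and had the largest rise among the targets above 5 CPM. Over the 11817 tested genes with a 3′ UTR, the median log2 fold change was 0.02 in the 7774 without a core and -0.005 in the 2369 with 1. It was -0.01 in the 1305 with 2 to 3 and -0.01 in the 369 with 4 or more. The median length of the 3′ UTR rose over these classes from 813 to 5005 bases, and its part in these small differences was not tested.

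The genes most like ZFP36L1 and ZFP36L2 in their values were sought among 10037 genes whose mean reached 5 CPM, by the root-mean-square difference of centred log2 CPM over the 8 libraries. Those nearest to ZFP36L1 were ZNF185, CTDSP2, ZSWIM4, SMURF1 and EHBP1L1, at 0.037 to 0.046 log2 units. Those nearest to ZFP36L2 were LGSN, CYP27C1, PARD6B, SREK1IP1 and PDE7A, at 0.052 to 0.074 log2 units. All 10 had log2 fold changes between -0.60 and -0.41, which follows from choosing them by their values in these same libraries.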

How the data were processed

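Per the labels and the study's methods, reads from HaCaT RNA were filtered and mapped with HISAT2 2.1.0, and counts were made with StringTie. The submitters' processing notes also list Bowtie2 2.2.5, RSEM 1.2.8 and the mouse build mm10, although the rows are human RefSeq transcripts. The human build is not given in the sources used here, so the 3′ UTR windows come from a separate annotation, GENCODE 29 on GRCh38. The authors deposited an estimated count per transcript, which was not normalised, together with TPM and FPKM. In the deposited TPM every library adds up to the same sum. The FPKM that the authors deposited and their group means were not used.

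Estimated counts of 86639 transcripts, of which 4181 are further placements, were fractional in 53.8% of values. They were summed by Entrez identifier to 17131 genes and rounded. RefSeq's gene table (GRCh38.p14) gave a symbol to 17072 of these, and no library had over 0.0201% of its counts in the other 59. filterByExpr kept 12434 genes. Counts were scaled by TMM and compared with edgeR's quasi-likelihood test (edgeR 4.0.16, R 4.3.3) over all 8 libraries with Benjamini-Hochberg adjustment, without covariates. The biological coefficient of variation was 7.42%, and each standard error was taken from the F value. All replicate pairs differed by more than counting noise, with a chi-square per gene of 2.03 to 16.5. Pairs with M5 replicate 1 were at 10.35 to 16.5, and the other M5 pairs at 2.03 to 4.06. Pairs with M5_O5 replicate 1 were at 7.115 to 11.1, and the other M5_O5 pairs at 3.053 to 7.146. Without M5 replicate 1, 5376 genes were called, against 4614 with all 8 libraries. The scripts were tested on simulated data.

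The members and lists were chosen with earlier results of these data known. Genes named besides the members are, per list and direction, the 3 largest changes among genes called and averaging 5 CPM or more, and the 5 genes nearest in pattern to the 2 members with the largest change. One gene that this rule names is not reported here. The alternatives tried were a DESeq2 1.42.0 fit, scaling by library size or RLE, 2 other count filters, a loess trend on expression level removed, limma 3.58.1 on log2(TPM + 1) and log2(TPM + 0.1), the first placement of each transcript, the replicate number as a block, a 2-fold threshold, and each library left out in turn. The study's protein, tissue and mouse work was not used here.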

Additional observations from a re-analysis of the deposited data

How the results depend on the processing

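ZFP36, ZFP36L1, ZFP36L2 and ARID5A were called lower under every alternative by adjusted p, with log2 fold changes of -0.42 to -0.25, -0.55 to -0.34, -0.61 to -0.38 and -0.44 to -0.26. The count of members called lower was 4 to 5 with a library left out and 0 with the 2-fold threshold. KHSRP was the 1 member called higher with library size only, with the trend removed and with both limma fits, at 0.24 to 0.26. The 5 members that did not overlap became 5 to 6 with a library left out and 4 in deposited TPM, where ZFP36L2 overlapped.

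Signs turned only in members not called. With the trend removed, ZC3H12A was at 0.02, ZC3H12C at 0.035 and HNRNPD at 0.085. With library size only, ZC3H12C was at 0.017, ELAVL1 at 0.027 and HNRNPD at 0.109, and with limma on TPM + 1 and + 0.1 ZC3H12C was at 0.029 and 0.030, ELAVL1 at 0.033 and 0.034, and HNRNPD at 0.112 and 0.114. With a library left out HNRNPD ranged from -0.033 to 0.023, turning positive at 0.023 without M5 replicate 3 and at 0.018 without M5_O5 replicate 2. The cause was not tested. The median log2 fold change of all tested genes was 0.128 with library size only, 0.116 and 0.135 in the limma fits and -0.005 with the trend removed. It was 0.01 without M5 replicate 3 and 0.013 without M5_O5 replicate 2.

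List counts moved more. Binders called lower numbered 4 with the trend removed, 2 with library size only and in both limma fits, and 5 to 11 with a library left out, while 5 were higher in those 4 settings and 3 to 4 with a library left out. Decay genes called lower numbered 6 with library size only and 2 in both limma fits. Upstream genes called lower numbered 4 with the trend removed, 3 with library size only, 2 in both limma fits and 7 to 11 with a library left out, and those called higher numbered 2, 3, 3 and 1 to 2. Targets called lower numbered 9 in both limma fits, and 14 were higher with the trend removed. At 2-fold, 0 genes were called lower in any list, and 0 binders, 1 decay gene and 0 upstream genes were higher.

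With the replicate number as a block, 5256 genes were called in place of 4614, and 4 members were lower. Same-numbered libraries deviated with correlations of 0.209, 0.098, -0.004 and 0.013, so the numbers were not taken as pairs, and not every library correlated best with its own number. The NM_031369 difference of 6.38 percentage points ranged from 3.79 to 8.33 with a library left out. No transcript share passed under any of 3 other settings, where a single separated transcript could not pass after adjustment either. With mean shares of 1 to 99% admitted, 1 of 23 transcripts had an unadjusted exact permutation p under 0.05. This was NM_001323551 of ZC3H12A, at 2.31 ± 0.105% of the gene in M5_O5 and 3.08 ± 0.535% in M5 (SD, n = 4). An outlier rule flagged 0 of 18 sets of 4 values within a title, where chance gives about 0.9. With only 4 values per set this rule cannot exclude a library that stands apart, as M5 replicate 1 did for ZC3H12A. With 4 libraries per group the intervals of the members not called reach as far as -0.29 (ZC3H12A), so smaller differences could not be told from the spread.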
